A study of Homo sapiens with 6 samples.

Results

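The step between 3 h and 6 h of androgen was examined in LNCaP, a prostate cancer cell line of human origin that responds to androgens. It compares 2 of the 6 libraries of a time course, the library after 6 h and the library after 3 h with dihydrotestosterone (DHT), at 10 nM in both. Genes entered when their mean over the 6 libraries was at least 20 counts, which 11916 of 17990 genes reached, and the other 6074 were not measured here. The change of a gene was taken as log2 of (CPM + 1) at 6 h over (CPM + 1) at 3 h, where CPM is its count scaled to the same library total, so the fold of a gene of low level is understated. All 6 groups were LNCaP cells kept for 3 days before treatment in phenol red-free medium with serum stripped of hormones by charcoal and dextran. They were untreated at 0 h or given 10 nM DHT for 3 h, 6 h, 12 h, 24 h or 48 h. There was 1 library per time, so no test between samples was possible, no p-value is given, and whether the libraries came from separate cultures is not given in the sources used here. Calls of higher or lower need a difference of 2-fold or more, a rule of size.

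Androgens such as DHT act through a steroid hormone receptor that binds DNA at pairs of short inverted half-sites. In luminal prostate cells they induce genes of secreted proteases, lipid synthesis and protein secretion, while other genes fall in level. Some targets respond directly within hours, and others follow through the factors made in the first wave, so a comparison of neighbouring early times shows which transcripts moved in between. As a check of the label, all 12 luminal prostate markers on the list were measured in both libraries, with a summed level of 12349 CPM at 3 h and 16830 CPM at 6 h. Of the markers of other cells, 2 of 7 basal, 4 of 10 fibroblast and 1 of 11 leukocyte markers reached the count minimum. Their summed levels were 37.3 and 31.5 CPM, 99.9 and 71.3 CPM, and 19.5 and 17.9 CPM at 3 h and 6 h. COL1A2 of the fibroblast list and CD14, CD3D, CD8A, HBB and MS4A1 of the leukocyte list had no count in either library. In bulk RNA, fewer cells of a type and less RNA per cell cannot be told apart.

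The 3 h library held 14113170 counts and the 6 h library 13410529, with a read for 15589 and 15574 genes, and their 10 most abundant genes took 6.47% and 6.53% of the counts. The totals of the 6 libraries lay between 13179917 and 20587956. No measured gene was at a count of 0 at 3 h or 6 h, and 32 measured genes had fewer than 20 counts in both. The 12 h library stood apart in a way the step does not use: of 389 genes of chromosome 4, 383 had dropped 2-fold or more at 12 h relative to 6 h, with a median of -2.73, and of 387 genes of chromosome 15, 166 were. Levels at 12 h of genes on these chromosomes are given with that in mind.

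The promoters of KLK2 and KLK3 are shown because these neighbouring kallikrein genes, which encode secreted prostate proteases, carry the same match to an androgen response element and differed in the size of the step. The sequences are the 250 bases before the annotated start, from RefSeq on build GRCh38.p14, at chr19:50873189-50873438 (plus strand) for KLK2 and chr19:50854665-50854914 (plus strand) for KLK3. Capitals mark the only match, on either strand, to GAACANNNNGTNCT, 2 inverted half-sites with spacer letters that can be any base.
KLK2: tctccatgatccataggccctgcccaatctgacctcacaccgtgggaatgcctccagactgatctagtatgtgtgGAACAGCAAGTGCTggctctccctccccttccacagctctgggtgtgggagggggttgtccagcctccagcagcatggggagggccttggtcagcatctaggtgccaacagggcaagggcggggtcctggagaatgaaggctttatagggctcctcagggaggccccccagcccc
KLK3: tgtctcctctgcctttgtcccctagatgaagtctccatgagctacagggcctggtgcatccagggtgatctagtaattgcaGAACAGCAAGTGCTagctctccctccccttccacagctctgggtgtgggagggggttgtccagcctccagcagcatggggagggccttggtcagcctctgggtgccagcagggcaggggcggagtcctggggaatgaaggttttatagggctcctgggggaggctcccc
The match begins 175 bases before the start in KLK2 and 169 bases before it in KLK3, and both windows read GAACAGCAAGTGCT there. KLK2 was at 1036 CPM at 3 h and 2175 CPM at 6 h, a ratio of 2.10 (95% counting interval 2.06 to 2.14). KLK3, which encodes prostate-specific antigen, was at 4566 and 6232 CPM, a ratio of 1.36 (1.35 to 1.38). The 2 genes are close copies, so reads could have been split between them by a counting step that the sources used here do not describe. The pattern GAACANNNNGTNCT, with any base at N, is in 64 of 27305 RefSeq promoter windows (0.234%) and in 11 of the 9559 measured genes with a window. The windows of FKBP5 and NCAPD3, whose levels differed more between 3 h and 6 h, do not hold this pattern.

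As measured, 2494 genes were at least 2-fold higher at 6 h than at 3 h (20.9% of those measured) and 167 were at least 2-fold lower (1.40%). The direction of the change followed base composition. Genes were sorted by the share of G and C in their longest annotated transcript, which was known for 11622 of the 11916, and divided into 10 bins of equal size. In the bin of lowest GC content (median 37.0%) the median change was 1.47 on the log2 scale, and 894 of 1163 genes were called higher and 0 lower. In the bin of highest GC content (median 64.2%) the median change was -0.56, with 4 genes higher and 78 lower. Across genes, which are not independent and come from the same pair of libraries, Pearson's r of the change on GC content was -0.762. It was 0.229 for the step from 0 h to 3 h and 0.213 for the step from 6 h to 12 h. The relation was thus much stronger between 3 h and 6 h than in either neighbouring pair, and of the opposite sign. With 1 library per time, a property of a library and an effect of the hormone cannot be told apart.

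**Figure D1:**
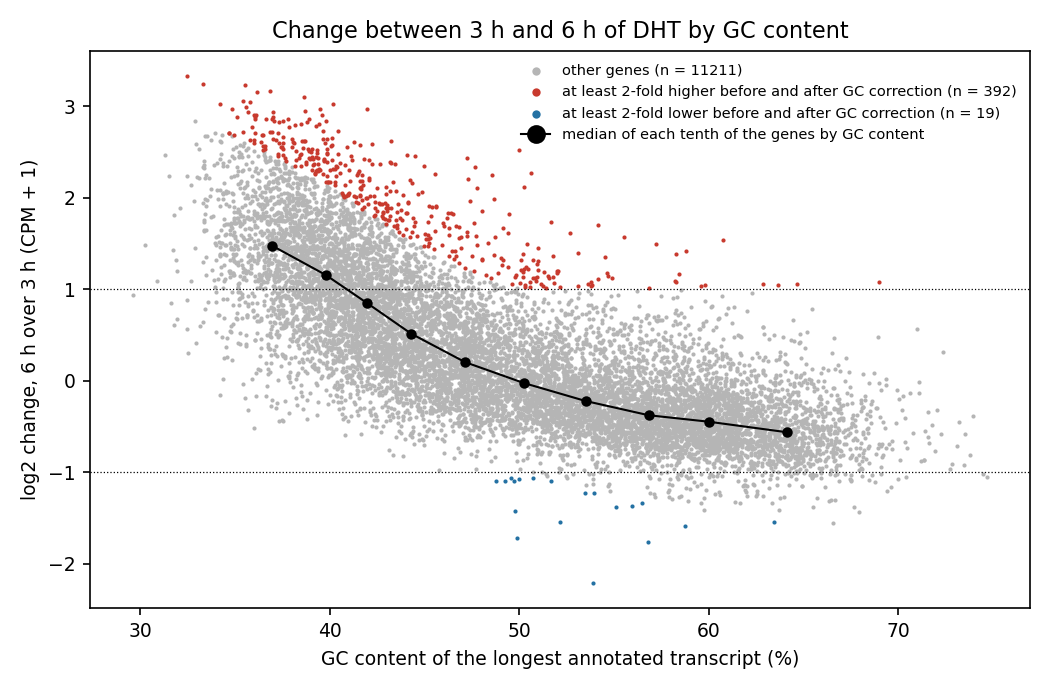
Each point is a gene, placed by the GC content of its longest annotated transcript (percent) and by its log2 change in CPM + 1 from 3 h to 6 h; the black line joins the medians of 10 equal bins of genes, from 1.47 at the lowest GC content to -0.56 at the highest. Red and blue points are the 392 and 19 genes at least 2-fold higher or lower both before and after the trend was removed, and dotted lines mark 2-fold.

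To remove the trend, a smooth curve (lowess, span 0.3) of the change on GC content was subtracted from each gene. After this, 468 genes were at least 2-fold higher (4.03%) and 244 lower (2.10%), and the standard deviation of the change over genes went from 0.836 to 0.511. Of the genes called higher as measured, 407 were below 0 after correction. The account below leads with genes past 2-fold both as measured and after correction, which were 392 higher (3.37%) and 19 lower (0.163%). For all 392 and all 19 the 95% counting interval of the ratio, which covers counting error only, lay clear of 1. It did so too for all 2494 and all 167 called as measured, so it does not set the 392 and 19 apart. As written below, a change or a log2 change is the value as measured unless it is named as corrected.

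The correction left the share of higher genes large among long transcripts. The 392 higher genes had a median transcript length of 5566 bases against 3695.5 for all genes with a GC value, and a median GC content of 42.6% against 48.5%. The 19 lower genes had a median length of 2642 bases and a GC content of 52.2%. The rule of both scales shapes this contrast, since the trend raised measured values at low GC content. In the bin of lowest GC content, 0 genes were lower as measured. Of the 468 higher and 244 lower after correction, the rule kept 392 and 19. With genes divided into 10 bins by length, the bin of longest transcripts held 104 of the 392, and the bin of shortest 16. When length was removed as well, 349 of the 392 and 14 of the 19 were still past 2-fold. The part of transcript length and base composition in the calls of single genes was not tested.

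Genes known to be induced by androgen made up the list with the highest median over the step. Of 29 measured members of 30, 14 were at least 2-fold higher as measured and none lower, with a median of 0.97 against 0.12 for all genes. After correction 11 were higher and none lower, with a median of 0.93 against -0.02, and 26 of the 29 were above 0. Of all genes, 20.9% were higher as measured, 4.03% after correction and 3.37% on both scales. The list was written with earlier results of these data known and is no independent support for its direction. The 9 members past 2-fold on both scales were NCAPD3, FKBP5, STEAP4, SPDEF, KLK2, ABCC4, TRPM8, PPAP2A and CENPN.

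NCAPD3, a subunit of the condensin II complex that compacts chromosomes, was at 79.3, 145, 692, 2028, 3982 and 2547 CPM, given here and below in the order of time from 0 h to 48 h. Its ratio over the step was 4.78 (4.56 to 5.02), with a log2 change of 2.25 as measured and 2.13 after correction. FKBP5, a co-chaperone of steroid receptors, was at 59.0, 152, 748, 1588, 2286 and 2050 CPM, a change of 2.30 and, corrected, 1.40. Both genes were already higher at 3 h than at 0 h and kept climbing to 24 h, so the step lay in the middle of their course. STEAP4, a metalloreductase that reduces iron and copper at the membrane, was at 1.44, 3.97, 35.2, 98.0, 319 and 344 CPM. Its ratio at the step was 8.87 (6.71 to 11.9), the log2 change 2.87 and the corrected change 1.62. SPDEF, an ETS transcription factor of secretory epithelia, was at 210, 343, 716, 1034, 1202 and 1043 CPM. SPDEF has a GC-rich transcript (64.6%), and its change was 1.06 as measured and 1.60 corrected, so here the correction enlarged the step.

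The other members of the list took several shapes around the step. ABCC4, an exporter of cyclic nucleotides and prostaglandins, was at 159 CPM at 3 h and 591 at 6 h, TRPM8, the cold-sensing channel, at 16.9 and 64.4, and CENPN, a centromere protein, at 74.5 and 181. PPAP2A (now PLPP1), a lipid phosphatase, was at 197 and 466. TMPRSS2, a membrane serine protease, was at 404, 1747 and 2873 CPM at 0 h, 3 h and 6 h, a step of 0.72 and 0.85 corrected, so its larger difference came before 3 h. TPD52, ACSL3, ELL2, EAF2 and ZBTB10 were past 2-fold as measured, from 1.84 to 2.13, but not after correction, with ZBTB10 the nearest to the threshold and TPD52, at 0.40, the farthest. SLC45A3, a sugar transporter of prostate cells, and KLK4, another kallikrein, were past it only after correction, at 1.01 and 1.25, with 0.61 and 0.79 as measured. HOMER2 and ACPP were below 0 after correction.

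**Figure D2:**
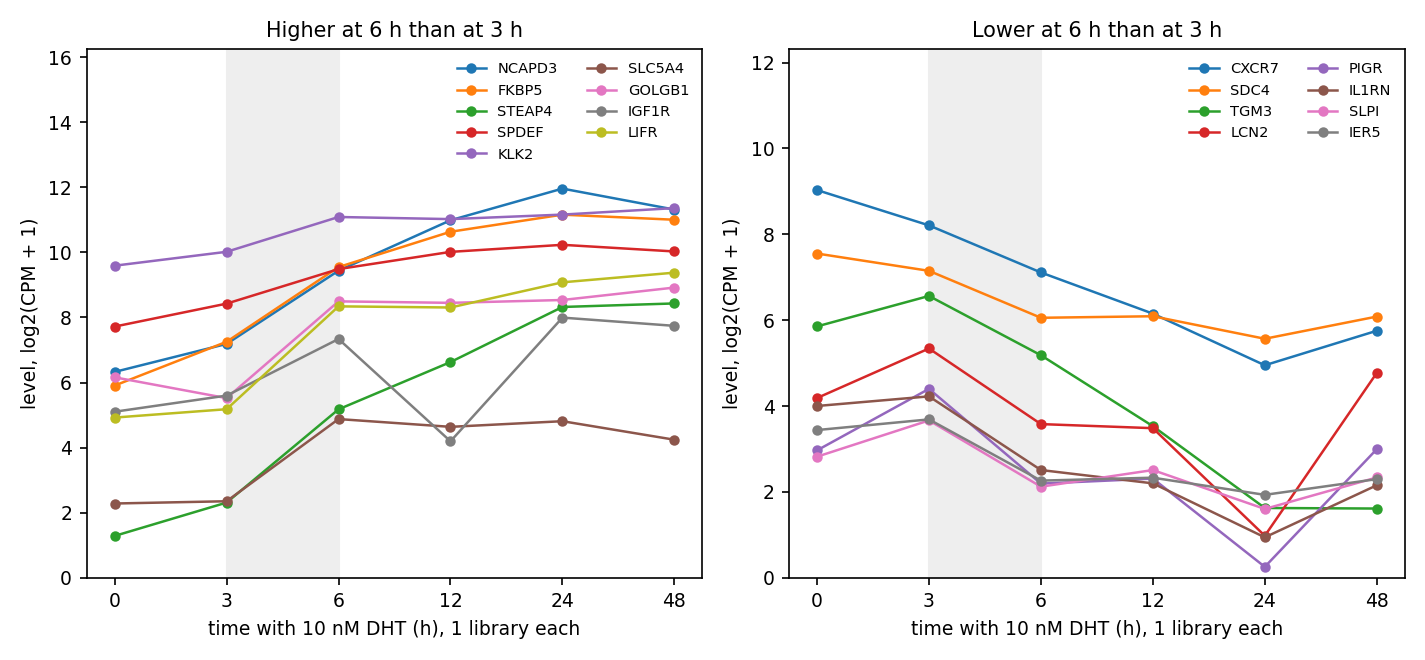
Level as log2(CPM + 1) against time with 10 nM DHT (h, evenly spaced), 1 library per point; the grey band marks the interval from 3 h to 6 h. On the left NCAPD3, FKBP5, STEAP4, SPDEF, KLK2, SLC5A4, GOLGB1, IGF1R and LIFR are higher at 6 h than at 3 h, and the low 12 h point is that of IGF1R, a gene of chromosome 15; on the right 8 genes are lower at 6 h than at 3 h.

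The largest differences on both scales were led by genes outside these lists. SLC5A4, a member of the sodium-coupled sugar transporter family, was at 3.87, 4.11, 28.4, 23.9, 27.1 and 17.9 CPM. Its change was 2.53 as measured and 2.51 corrected, with a ratio of 6.91 (5.23 to 9.28), and its transcript has a GC content of 50.0%. This gene was flat from 0 h to 3 h, and its level at 6 h was close to those at 12 h and 24 h. PRKCA, the alpha isoform of protein kinase C, was at 33.5, 37.0, 163, 246, 297 and 214 CPM, a change of 2.11 and 1.94 corrected. JAM3, a junctional adhesion molecule, was at 8.73, 9.14, 39.1, 66.6, 61.5 and 30.7 CPM (1.98 and 1.88). CSGALNACT1, which starts chondroitin sulfate chains, was at 3.19, 3.90, 22.4, 41.4, 76.2 and 61.5 CPM (2.25 and 1.87). In these 3 genes, as in SLC5A4, the 3 h level was near that of 0 h, and each level from 6 h on was above both.

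Another group among the 20 largest was lower at 3 h than at 0 h, so that part of the step lay below the 0 h level. Both comparisons use the single 3 h library, so a low reading in it and a fall in the cells cannot be told apart. GOLGB1, the Golgi tether giantin, was at 70.6, 44.9, 360, 348, 370 and 483 CPM (2.97 and 2.14). ANKRD10, an ankyrin repeat protein, was at 22.4, 14.6, 77.8, 48.2, 48.0 and 82.9 CPM (2.34 and 2.15). Both were nevertheless higher in each library from 6 h on than at 0 h. SLK, a serine/threonine kinase, went from 16.2 to 8.79 and then 78.4 CPM (3.02 and 1.93). OFD1, a centriole protein, went from 5.84 to 3.19 and then 24.7 CPM (2.62 and 1.95), and TTN, the giant muscle protein titin, from 15.1 to 8.72 and then 52.6 CPM (2.47 and 1.91). The 12 h, 24 h and 48 h levels of SLK, OFD1 and TTN lay between those of 0 h and 6 h or, for TTN at 48 h, above both.

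GOLGA8B and GOLGA8A, Golgi coiled-coil genes with near-identical copies on chromosome 15, were at 0.850 and 9.02 CPM and at 4.04 and 22.2 CPM at 3 h and 6 h, and how reads shared by the copies were counted is not known. LPAL2, a copy related to the apolipoprotein(a) gene, was at 2.27 and 14.8 CPM (2.27 and 2.30 corrected). C1orf63 (now RSRP1) was at 5.81 and 28.5 CPM, DOCK4, an activator of Rac, at 12.0 and 69.9, ZFPM2, a GATA cofactor, at 1.28 and 10.6, and C17orf91 (now MIR22HG), the host transcript of a microRNA, at 3.68 and 15.5. CLGN, a chaperone of the endoplasmic reticulum, was at 7.94 and 69.0 CPM, and ODZ1 (now TENM1), a teneurin, at 3.90 and 28.5. The ratio of GOLGA8B, 10.6, had a wide interval (5.86 to 21.1), since it rests on 12 counts at 3 h. That of GOLGB1, 8.01, rests on 634 and 4824 counts and was much narrower (7.37 to 8.71).

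The list of receptor and kinase signalling held 4 genes higher on both scales, of 24 measured, against 3.37% of all genes, but its corrected median of 0.06 was near the -0.02 of all genes. As measured, 8 were at least 2-fold higher and none lower (median 0.48), against 20.9% and 1.40% of all genes. LIFR, the receptor of leukaemia inhibitory factor, was at 29.4, 35.3, 323, 316, 540 and 664 CPM, a ratio of 9.16 (8.35 to 10.1) with a corrected change of 1.61. IL6ST, which encodes gp130, the chain that LIFR pairs with, was at 15.1, 8.43, 54.7, 35.5, 39.6 and 63.8 CPM (2.56 and 1.06). IGF1R, a growth factor receptor tyrosine kinase, was at 33.4, 47.5, 161, 17.3, 254 and 213 CPM (1.74 and 1.83), and its 12 h value is among those of chromosome 15 described above. ERRFI1, which restrains EGFR signalling, was at 33.3, 74.6, 243, 377, 834 and 575 CPM (1.69 and 1.05). LIFR and ERRFI1 were highest at the last 2 times, whereas IL6ST was at 12 h and 24 h lower than at 6 h, though above 0 h. When GC content was taken from the transcript that the deposited table names, IL6ST, at 0.95, and ERRFI1, at 0.998, lay below 2-fold.

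Among nuclear receptors and coregulators, 6 of 28 were higher as measured and none lower, and 1 on both scales, shares close to the 20.9% and 3.37% of all genes. The gene on both scales was NRIP1, a corepressor of nuclear receptors, at 30.7, 16.8, 125, 103, 111 and 148 CPM (2.82 and 1.56). NCOA2, a coactivator, was at 56.0 and 148 CPM (1.38 and 0.73) and RARB, a retinoic acid receptor, at 2.05 and 7.31 CPM (1.44 and 0.70). Of 27 early transcription factors and regulators, 6 were higher and 2 lower as measured (median 0.40), and KLF9 and ERRFI1 were higher on both scales (corrected median 0.32). The shares of all genes were 20.9% higher and 1.40% lower as measured, and 3.37% higher on both scales, so the share higher as measured was close to that of all genes. KLF9, a glucocorticoid- and androgen-responsive repressor, was at 40.7, 42.7, 111, 79.3, 73.0 and 78.8 CPM, highest at 6 h. ID3, an inhibitor of basic helix-loop-helix factors, moved the other way, at 0.910, 17.6, 6.71, 12.3, 3.59 and 0.665 CPM, a step of -1.27 and -0.93 corrected. ID3 and ID1 were the 2 lower members, and both had been higher at 3 h than at 0 h.

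Of 11 measured Kruppel-like factors, 2 were higher on each scale (medians 0.51 and 0.30), and KLF9 on both. Among all genes, 20.9% were higher and 1.40% lower as measured, 4.03% and 2.10% after correction, and 3.37% higher on both scales. KLF15 was at 41.9, 73.8 and 118 CPM at 0, 3 and 6 h, with 0.67 as measured and 1.11 corrected. Among 16 immediate early and AP-1 genes, none was higher and 1 lower as measured (median -0.15), and 1 was higher and 1 lower after correction (median 0.02). The gene lower on both scales was IER5, an immediate early factor, at 11.9 CPM at 3 h and 3.8 at 6 h. NR4A1, an orphan nuclear receptor, was at 42.8 and 78.9 CPM, with 0.87 as measured and 1.29 corrected.

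The 19 genes lower on both scales included several secreted epithelial defence proteins. PIGR, the receptor that carries polymeric immunoglobulin across epithelia, was at 6.83, 20.1, 3.58, 3.96, 0.194 and 6.98 CPM, a step of -2.21 and -1.99 corrected. LCN2, an iron-sequestering lipocalin, was at 17.2, 39.5, 11, 10.2, 0.971 and 26.3 CPM (-1.76 and -1.43). SLPI, a leukocyte protease inhibitor, was at 6.07, 11.7, 3.36, 4.70, 2.04 and 4.05 CPM (-1.54 and -1.42). Each of these 3 was higher at 3 h than at 0 h, lowest at 24 h, and higher again at 48 h. IL1RN, the interleukin 1 receptor antagonist, was at 15, 17.7, 4.70, 3.60, 0.923 and 3.46 CPM (-1.72 and -1.74). LRG1, a secreted glycoprotein, was at 7.72 CPM at 3 h and 2.39 at 6 h. This grouping was made after the values were seen and is not one of the lists.

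The other lower genes had courses of several shapes. CXCR7 (now ACKR3), a scavenger receptor of the chemokine CXCL12, was at 522, 295, 137, 70.2, 29.9 and 53 CPM, with a ratio of 0.466 (0.441 to 0.492) at the step. TGM3, a transglutaminase, was at 56.9, 93.7, 35.3, 10.6, 2.09 and 2.06 CPM (-1.38 and -1.11). SDC4, the heparan sulfate proteoglycan syndecan-4, was at 187, 141, 65.5, 67.2, 46.4 and 66.9 CPM (-1.09 and -1.19). CXCR7 was already lower at 3 h than at 0 h and was lowest at 24 h, TGM3 was higher at 3 h than at 0 h, and SDC4 was at 6 h already near its later levels. PCOLCE2, an enhancer of procollagen processing, was at 159 and 75.9 CPM at 3 h and 6 h. PPAP2C (now PLPP2), a lipid phosphatase, was at 95.9 and 44.4 CPM, and its corrected change of -1.13 was -0.62 with GC content of the named transcript. MYO7A, an unconventional myosin, was at 4.04 and 0.671 CPM, OSGIN1, an oxidative stress gene, at 23.5 and 7.38, and C19orf40 (now FAAP24), a DNA repair factor, at 4.68 and 1.72. PPAP2C, at 93.4 CPM at 48 h, and OSGIN1, at 19.8 CPM at 24 h, were later near their 3 h levels.

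Genes known to be repressed by androgen were lower as a list. None of 13 measured members was higher, 4 were at least 2-fold lower as measured (median -0.66) and 3 after correction (median -0.86), and all 13 were below 0 after correction. Of all genes, 1.40% were lower as measured, 2.10% after correction and 0.163% on both scales, with medians of 0.12 and -0.02. ID1 and ID3 were among the 4, and both were higher at 3 h and 6 h than at 0 h. This list too was written with earlier results of these data known and is no independent support for its direction. CXCR7 was the member lower on both scales. CBLN2, a synaptic organiser, was at 319, 332, 224, 137, 35.7 and 12.4 CPM (-0.57 and -1.31, but -0.61 with GC content of the named transcript). SLITRK3, a neuronal membrane protein, was at 268, 184, 116, 75.9, 27.2 and 12.8 CPM (-0.66 and -0.99, and -1.01 with GC content of the named transcript). For CBLN2 most of the decline came after 6 h. UGT2B17, which inactivates androgens by glucuronidation and has close relatives in its family, was at 28 CPM at 3 h and 24.9 at 6 h. Its corrected change of -1.45 rests on a transcript of low GC content, while its measured change was -0.16.

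Genes induced by low oxygen, targets of the hypoxia-inducible factors, had a median above that of all genes on both scales. Of 27 measured members, 10 were at least 2-fold higher and none lower (median 0.72), and after correction 5 were higher and none lower (median 0.28), 4 of them on both scales. The shares of all genes called higher were 20.9% as measured, 4.03% after correction and 3.37% on both scales. JMJD1A (now KDM3A), a histone demethylase, was at 66.9, 19.8, 88.5, 86.9, 87.8 and 95.2 CPM, a ratio of 4.48 (3.93 to 5.12) with a corrected change of 1.34. PPFIA4, a liprin scaffold protein, was at 10.7, 2.55, 8.50, 7.41, 5.39 and 10.2 CPM (1.42 and 1.82). BNIP3, a mitophagy receptor, was at 166, 67.5, 137, 186, 154 and 235 CPM (1.01 and 1.09, but 0.49 with GC content of the named transcript). In these 3 genes the 6 h level was near the 0 h level, so that 3 h was the low point. VEGFA, the angiogenic growth factor, was at 172, 133, 303, 310, 435 and 613 CPM (1.18 and 1.43), and it passed its 0 h level at 6 h. For 3 h over 0 h, a comparison that shares the 3 h library with the step, the list's median was -0.68 as measured and -0.52 corrected. For 6 h over 0 h the list's median was -0.27 as measured and -0.61 corrected. After correction the list as a whole was thus no nearer its 0 h level at 6 h. Over the step, 17 of the 27 members were above 0 after correction and 10 below, among them CA12 (-0.87) and BNIP3L (-0.38). HK2, a glucose-phosphorylating enzyme of the glycolysis list, was also lowest at 3 h, at 73.0, 35.1 and 73.9 CPM at 0, 3 and 6 h (1.05 and 1.12).

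Genes of mitosis had a lower corrected median than all genes, and their measured values went in both directions. Of 23 measured members, 6 were at least 2-fold higher and 3 lower as measured (median -0.23), and none was higher and 3 lower after correction (median -0.62), with 18 of 23 below 0. Beside this, 20.9% of all genes were higher and 1.40% lower as measured, and 4.03% and 2.10% after correction. CCNB1, cyclin B1, was at 66.2, 122, 71.7, 63.5, 28.6 and 35.4 CPM (-0.76 and -1.44). AURKA, a mitotic kinase, was at 12.1, 18.3, 9.77, 10.9, 5.0 and 9.24 CPM (-0.84 and -1.12), and UBE2C, the ubiquitin-conjugating enzyme of the anaphase-promoting complex, was at 17.0, 29.1, 13.3, 13.4, 4.91 and 7.51 CPM (-1.07 and -1.08). TPX2, a spindle assembly factor, was at 52.3, 76.2, 45.5, 41.3, 19.4 and 27.6 CPM (-0.73 and -0.99). All 4 peaked at 3 h and were lowest at 24 h, and at 6 h they stood close to 0 h. The 6 members higher as measured, TOP2A, TTK, CDC2, KIF11, CENPF and CENPE, lay between -0.07 and 0.98 after correction. Of 24 measured genes of DNA replication and G1/S, none was higher and 2 lower as measured (median -0.25), and none was higher and 1 lower after correction (median -0.38), with 22 of 24 below 0.

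**Figure D3:**
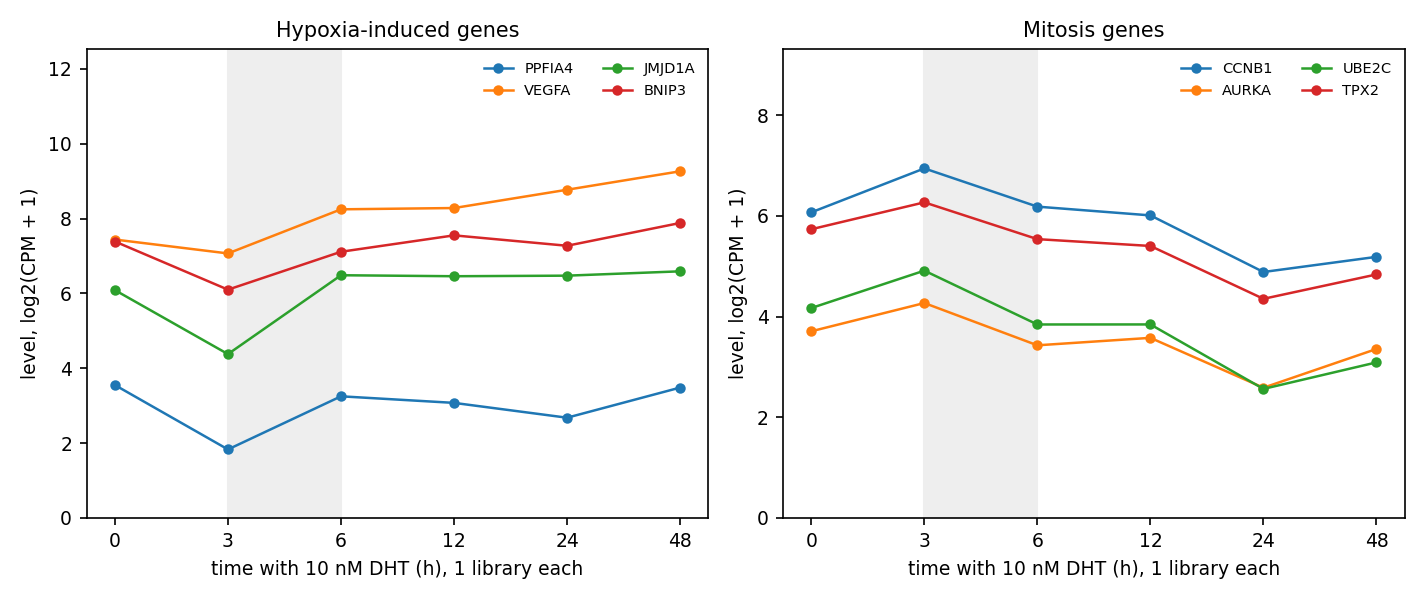
Level as log2(CPM + 1) against time with 10 nM DHT (h, evenly spaced), 1 library per point, with the interval from 3 h to 6 h in grey. The hypoxia-induced genes PPFIA4, VEGFA, JMJD1A and BNIP3 are lowest of the 6 times at 3 h, and the mitosis genes CCNB1, AURKA, UBE2C and TPX2 are highest at 3 h.

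The counts of the lists of secretion and lipid synthesis stand beside 20.9% of all genes called higher as measured and 3.37% on both scales. Of 25 genes of endoplasmic reticulum folding and secretion, 7 were higher and none lower as measured (median 0.41), and 2 on both scales (corrected median 0.14). DNAJB9, a co-chaperone of the folding compartment, was at 6.68, 7.86, 57.7, 78.2, 121 and 92.6 CPM (2.73 and 1.68). SEC24D, a coat protein of transport vesicles on chromosome 4, was at 23.7, 27.5, 76.1, 29.6, 226 and 133 CPM (1.44 and 1.05, but 0.996 with GC content of the named transcript). Among 15 genes of fatty acid synthesis, 3 were higher as measured (median 0.13) and 1 on both scales, the elongase ELOVL7, at 13.3, 12.1, 79.0, 146, 155 and 160 CPM (2.61 and 1.08). Of 24 genes of cholesterol synthesis and uptake, 4 were higher as measured and none after correction (both medians -0.10). IDI1, an isomerase of the pathway, was at 16.9 CPM at 3 h and 55.4 at 6 h, and SC5DL (now SC5D), a sterol desaturase, at 22.6 and 94.4, with corrected changes of 0.69 and 0.73.

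The next 3 lists also stand beside 20.9% of all genes higher and 1.40% lower as measured, 4.03% higher after correction and 3.37% higher on both scales. Of 15 ion channels and transporters, 3 were higher and 1 lower as measured (median 0.05), and TRPM8 and CHRNA2 were higher on both scales (corrected median 0.05). CHRNA2, a nicotinic acetylcholine receptor subunit, was at 5.01, 20.2, 54.5, 47.1, 76.0 and 80.3 CPM (1.39 and 1.77). Of 13 genes of amino acid transport, 4 were higher as measured (median 0.38) and none after correction (median 0.13). SLC38A4 was at 1.13 and 8.87 CPM and SLC7A11 at 19.6 and 111 CPM, with corrected changes of 0.84 and 0.82. Of 21 Notch, BMP and TGF-beta feedback genes, 4 were higher and 2 lower as measured (median 0.10), and BMPR1B, a BMP receptor, was higher on both scales, at 1.28 and 11.3 CPM (corrected median of the list 0.18).

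**Figure D4:**
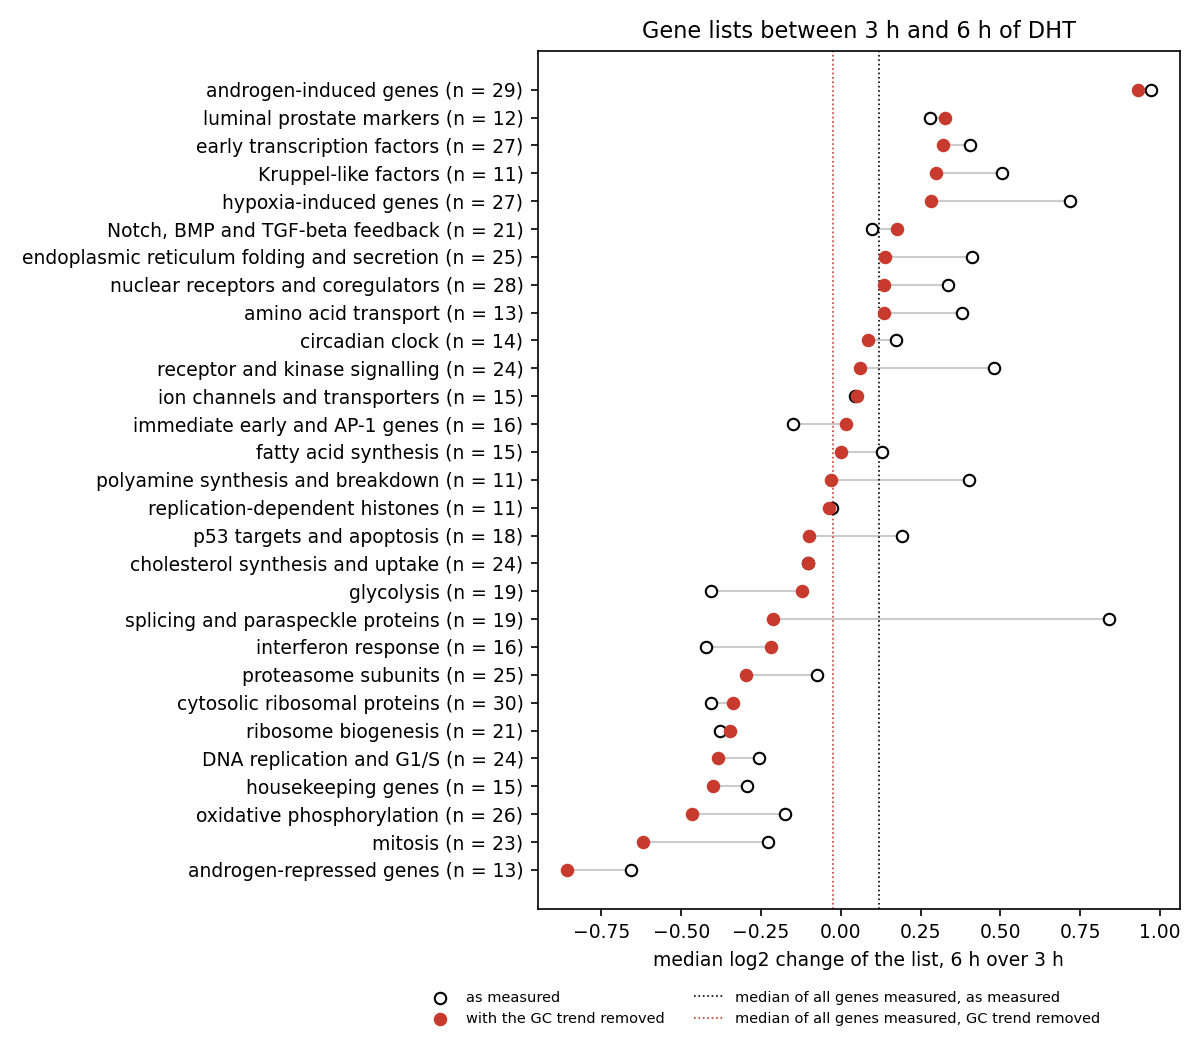
Median log2 change from 3 h to 6 h of each list with at least 5 measured genes (n beside its name), as measured (open circles) and with the GC trend removed (red); dotted lines mark the medians of all genes, 0.12 and -0.02. Androgen-induced genes lie at 0.97 and 0.93 and androgen-repressed genes at -0.66 and -0.86, while splicing and paraspeckle proteins cross from 0.84 to -0.21.

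Some lists changed side with the correction. Splicing and paraspeckle proteins, whose median GC content was 41.2%, had 6 of 19 members higher and none lower as measured (median 0.84), but 1 higher and 1 lower after correction (median -0.21). All genes had 20.9% higher and 1.40% lower as measured, and 4.03% and 2.10% after correction. SF3B1, a core spliceosome subunit, was at 119 and 354 CPM at 3 h and 6 h (1.57 and 0.60), and HNRNPU, a nuclear RNA-binding protein, at 449 and 478 CPM (0.09 and -1.27). Among the genes with the largest measured increase that were not past 2-fold after correction were LYSMD3 (2.84 and 0.97), TMEM106B (2.70 and 0.94), DNAJB14 (2.69 and 0.96) and PIK3CA (2.68 as measured and just under the threshold after it). C1QL4 (-1.55 and -0.98), KIF21B (-1.42 and just short of 2-fold), PALM (-1.43 and -0.83) and BAI2 (-1.41 and -0.89) were their counterparts among the lower genes.

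Whether the genes of the step kept their change was read from libraries it does not use. At 24 h against 0 h, 228 of the 392 higher genes (58.2%) were at least 2-fold higher and 0 lower as measured, while 10.5% of all genes were higher and 10.8% lower. With the trend of that comparison removed, 151 of 392 (38.5%) were higher and 0 lower, against 7.16% and 6.58% of all genes. At 48 h against 0 h, 283 of 392 (72.2%) were higher and 0 lower as measured, against 15% and 7.33% of all genes, and after correction 203 of 392 (51.8%) were higher and 0 lower, against 7.42% and 5.24%. Of the 19 lower genes, 11 (57.9%) were lower and 1 higher at 24 h, and 7 (36.8%) lower and 2 higher at 48 h, both corrected. The 2058 genes higher as measured only had 31.2% higher and 0.875% lower at 24 h as measured, and 9.82% higher and 2.58% lower after correction. At 48 h they had 52.0% higher as measured and 10.8% after correction. The 24 h and 48 h comparisons share the 0 h library with each other. For the steps to 12 h, 24 h and 48 h, Pearson's r of the change on GC content was 0.213, -0.064 and -0.148. These lay far from the -0.762 of the step, so levels as measured at 24 h and 48 h can carry its trend.

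**Figure D5:**
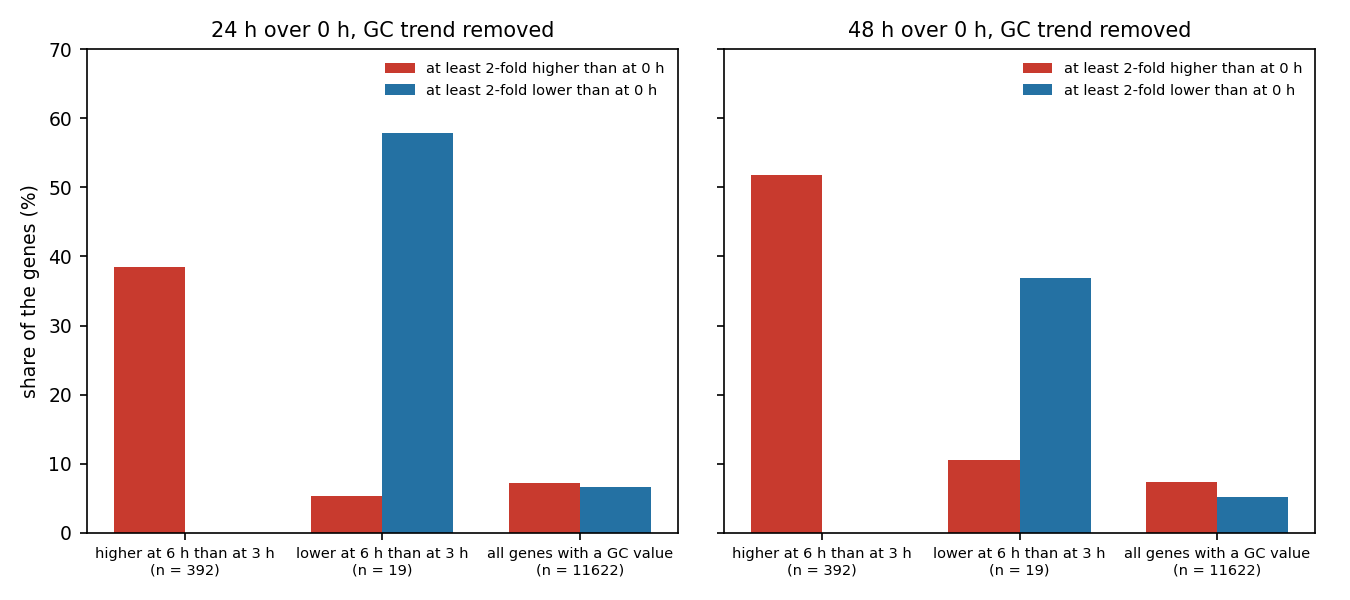
Share of genes (percent) at least 2-fold higher (red) or lower (blue) at 24 h and at 48 h than at 0 h, with the GC trend removed, for the 392 genes higher and the 19 genes lower at 6 h than at 3 h and for all 11622 genes with a GC value. Of the 392, 38.5% and 51.8% are higher at 24 h and 48 h and none is lower, and no error is drawn because there is 1 library per time.

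The step held more higher genes than its neighbours, but fewer lower genes than the step from 6 h to 12 h. It had 2494 higher and 167 lower as measured, and 468 and 244 after correction. From 0 h to 3 h, 89 genes were at least 2-fold higher (0.747%) and 103 lower (0.864%), and after correction 108 (0.929%) and 51 (0.439%). From 6 h to 12 h, 54 genes were higher (0.453%) and 655 lower (5.50%), and after correction 51 (0.439%) and 606 (5.21%), with the genes of chromosomes 4 and 15 among the lower. These steps share the 3 h or the 6 h library with the step from 3 h to 6 h, so the counts are given side by side only. By chromosome, the median of the step ran from -0.41 on chromosome 19 to 0.93 on chromosome 13 as measured and from -0.09 on chromosome 12 to 0.21 on chromosome 13 after correction, over chromosomes with at least 100 measured genes. Chromosomes 19 and 13 had the median GC contents of 58.8% and 42.1%.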

How the data were processed

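RNA was measured by sequencing in 6 LNCaP libraries, 1 per time, and groups came from the sample labels. The count columns were deposited by the authors as tags per RefSeq transcript, per the file headers. The RPM columns, which the headers call ppm, hold the same counts scaled by the authors, and served only for an alternative denominator; the listed transcripts held 89.1% of it at 3 h and 86.9% at 6 h. The submitters' processing notes name build hg19; the aligner, counter and strand setting were not given in those notes, the labels or the headers, so antisense and overlapping genes cannot be told apart.

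Of 18051 lines 50 exact repeats were removed, and the 18001 transcripts were summed by symbol to 17990 genes; of 679 transcripts without a symbol 69 were named through RefSeq (GRCh38.p14), and the others kept. GC content and length came from GENCODE release 29 (GRCh38) for 97.5% of the 11916 measured genes. Genes were matched by RefSeq accession, and where that failed by gene name, Ensembl identifier or current symbol. Counts were scaled to CPM, with a pseudocount of 1 CPM. Ratios have exact conditional binomial 95% intervals, which cover counting error only; a count of 0 allows 3 counts, 0.213 CPM at 3 h and 0.224 CPM at 6 h. The procedure was tested on simulated data. Just inside the count minimum lay C1orf161, LRRC4C and PALM2-AKAP2 (0.20, 0.60 and -0.02), and just outside FLJ43692 and ASB18 (0.58 and 0.12). Python 3.11.15, statsmodels 0.14.6, R 4.3.3, edgeR 4.0.16 and DESeq2 1.42.0 (the last 2 for scaling only) were used.

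The genes named are, among those called before and after correction, the 20 that increased most and the 15 that decreased most, ranked by the smaller of both changes, up to 5 per direction called only before it, up to 4 per list by corrected change, and KLK2, KLK3, TMPRSS2 and FKBP5. Other genes stand as members of a list or count, and were chosen after their values were seen. The members and the 32 lists were chosen with earlier results of these data known. Some genes that the rule or the lists name are not reported here. Alternatives are given in the closing section.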

Additional observations from a re-analysis of the deposited data

How the results depend on the processing

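No paired analysis was possible because there was 1 library per group, and for the same reason no library could be left out. The number of genes lower as measured, 167, was 264 with TMM scaling, 96 with a mean of at least 100 counts and 33 with a pseudocount of 5 CPM. After correction, 468 higher and 244 lower became 282 and 83 with a pseudocount of 5 CPM. The lower became 105 when the counting interval of the ratio as measured also had to lie below 1. The share of higher genes among the calls, 65.7%, was then 77.3% and 81.6%. That interval is not one of the corrected change. It drops genes such as PSMA5, with a measured ratio of 1.01 and a corrected change of -1.42, so the 105 does not measure counting error of the corrected calls. Of genes higher before and after correction, 392 became 632 with no count minimum and 256 with a pseudocount of 5 CPM. Of those lower, 19 became 9 with a mean of at least 100 counts, 42 with a pseudocount of 0.5 CPM and 8 with one of 5 CPM. A pseudocount of 5 CPM shared 230 and 8 genes with the calls reported. GC content averaged over all transcripts shared 263 and 14, and GC content of the transcript named by the deposited table, an alternative chosen after seeing the data, shared 294 and 15 of the 365 and 16 that had such a value. The median of all genes, 0.12, was 0.05 with DESeq2 size factors and 0.03 with TMM. The highest chromosome median, 0.93, was 0.67 with a pseudocount of 5 CPM, 0.21 with the trend removed, 0.19 with a span of 0.6, 0.21 with GC bins, 0.19 with GC and length, 0.16 with mean GC and 0.20 with GC of the named transcript. The lowest, -0.41, was -0.093, -0.11, -0.064, -0.085, -0.10 and -0.095 in the same order from the trend removed on. Genes of the step higher at 24 h went from 228 to 151 with the trend removed, and lower genes that were higher at 48 h from 1 to 2. IFIH1 of the interferon list reversed, from 1.18 as measured to -0.085 with mean GC. The causes were not tested beyond what the fewer genes or larger pseudocount set by construction. Each of 1735 values of named genes under the alternatives was set against the gene's value as measured. Of these, 947 moved by at most 0.5 times the log2 width of the counting interval, 787 moved by more, and 1 of a gene past 2-fold as measured changed sign. Most of the 787 came from settings that remove the GC trend, so they hold the correction itself. With the trend removed 113 moved, against 36 with TMM scaling and 44 with a pseudocount of 5 CPM. Genes under 2-fold as measured could also change sign with the trend removed, such as PSMD14 (0.68 to -1.27) and ME1 (0.61 to -0.56).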

Other observations

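Lists of basic cell functions had medians below that of all genes over the step from 3 h to 6 h. Their counts stand beside 20.9% of all genes higher and 1.40% lower as measured, and 4.03% and 2.10% after correction. All 26 genes of oxidative phosphorylation were below 0 after correction (median -0.47), with none past 2-fold as measured (median -0.17) and 2 lower after correction. COX7C, a small subunit of cytochrome c oxidase, was at 292 CPM at 3 h and 265 at 6 h, a change of -0.14 as measured and -1.39 after correction. Of 30 cytosolic ribosomal proteins none was past 2-fold as measured (median -0.41) and 1 was lower after correction (median -0.34). RPS3 was at 1884 and 1291 CPM. Of 21 genes of ribosome biogenesis, 1 was higher as measured (median -0.38) and none was past 2-fold after correction (median -0.35), and NOL5A (now NOP56), a nucleolar protein, was at 205 and 134 CPM. Of 15 housekeeping genes none was past 2-fold on either scale (medians -0.29 and -0.40). Of 25 proteasome subunits, 3 were higher as measured (median -0.07) and 4 lower after correction (median -0.30). PSMA5, PSMA6, PSMB1 and PSMD14 were these 4, and PSMA5 alone was past 2-fold when GC content was taken from the named transcript.

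The other lists held few calls, beside 20.9% of all genes higher and 1.40% lower as measured, and 3.37% higher on both scales. Of 19 glycolysis genes, HK2 alone was past 2-fold on either scale (medians -0.41 and -0.12). Of 11 genes of polyamine synthesis and breakdown, 1 was higher as measured (medians 0.40 and -0.03), and ODC1, the enzyme that commits ornithine to the pathway, was at 859 and 1134 CPM. Of 14 circadian clock genes, 3 were higher as measured and none after correction (medians 0.17 and 0.09). Of 18 p53 targets and apoptosis genes, 3 were higher and 1 lower as measured (median 0.19), and MDM2, the ligase that degrades p53, was at 21.0 and 62.0 CPM (1.52 and 0.66). Of 16 interferon response genes, 2 were higher and 1 lower as measured (median -0.42) and none was past 2-fold after correction (median -0.22). Of 11 replication-dependent histones, which have close copies, 1 was higher as measured (medians -0.03 and -0.04). Of the 12 luminal markers, SPDEF and KLK2 were higher on both scales (medians 0.28 and 0.33). No member of the basal list was past 2-fold after correction, and none of the fibroblast and leukocyte lists on either scale.

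2 transcripts without a symbol stood among the largest measured differences and had no GC value. NM_001012651 was at 18.4 CPM at 3 h and 157 at 6 h, and NM_139124 at 43.6 and 14.8 CPM.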
